A study of Mus musculus with 3 samples.

Results

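The genes followed here, cell by cell, are 9 that microglia use to sense and act on their surroundings: P2ry12, Tmem119, Cx3cr1, Csf1r, Gpr34, Fcrls, Olfml3, Selplg and Crybb1. They were chosen by name as surface and secreted genes of homeostatic microglia, and all 9 of the 15635 genes counted in the 3 libraries were present in each library. The cells were sorted brain microglia of 8-week-old mice, profiled by droplet single-cell RNA sequencing of transcript 3′ ends, with 1 library for each genotype. Control was wild type, hCD33M carried the long isoform of human CD33, and hCD33m carried the short isoform, which lacks the sugar-binding domain. Both transgenes sit in the Rosa26 locus behind a floxed stop cassette and are switched on by Cre driven from Cx3cr1, itself one of the 9 genes. The hCD33m line came from a single embryonic stem cell clone, and whether the sequenced Control mice carried Cre is not given in the sources used here. For its phagocytosis assays of single isoforms and its in situ hybridization, the paper lists wild-type controls that were heterozygous for this Cre and lacked a CD33 transgene. Each library pooled 2 mice, whose cells were gated on CD11b, low CD45 and Cx3cr1 protein and kept cold with the transcription inhibitors actinomycin D and triptolide. Mouse genes only were counted, so the human transgenes are not among these values.

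Microglia in the healthy brain are told apart from other macrophages by a set of genes for receptors, adhesion molecules and secreted proteins that depends on signals from the brain and fades when the cells are activated or leave it. P2ry12 is the ADP receptor that directs microglial processes toward injury, and Gpr34 is a receptor for lysophosphatidylserine. Csf1r receives the survival signals CSF1 and IL-34, and Cx3cr1 receives fractalkine from neurons. Tmem119 is a membrane protein used as a microglial marker, Fcrls an Fc receptor-like protein, and Selplg the P-selectin ligand PSGL-1, which leukocytes use to roll on vessel walls. Olfml3 is secreted and binds bone morphogenetic protein, and Crybb1 is a lens crystallin that mature microglia also express.

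The 9 genes lie on 5 chromosomes of GRCm38, in the positions of GENCODE M21. P2ry12 (chr3:59216272-59262871, minus strand) overlaps Med12l on the other strand, Gpr34 (chrX:13632089-13640858, plus strand) lies within Cask on the other strand, and Csf1r overlaps the microRNA gene Mir6983 on its own strand and Hmgxb3 on the other. The annotated span of Cx3cr1 (chr9:119901616-120069879, minus strand) crosses Gorasp1, Csrnp1 and Xirp1 on its own strand, and other genes on the opposite strand, and how the counting split reads among them is not given in the sources used here. Fcrls (chr3:87250758-87263738, minus strand), Olfml3 (chr3:103722222-103738001, minus strand), Crybb1 (chr5:112255815-112269585, plus strand), Tmem119 (chr5:113793729-113800516, minus strand) and Selplg (chr5:113818536-113832644, minus strand) overlap no other annotated gene.

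RefSeq promoter sequences of GRCm38.p6 were at hand for 5 of the 9 genes: P2ry12, Fcrls, Olfml3, Crybb1 and Cx3cr1. The 250 bases before the RefSeq start are shown for P2ry12 and Olfml3, from the 8 genes that varied together between cells, and for Crybb1, which varied apart from them. Motifs for 2 factors were searched on both strands, GAGGAA, the core bound by the macrophage factor PU.1, and TGANTCA, the AP-1 element bound by Fos and Jun, and a match would stand in capitals. No matches of the motifs overlapped in these windows. GAGGAA stood in 1 of the 5 promoters, that of Fcrls, whose window runs into exons annotated by GENCODE and is not shown, and in 23.3% of 32851 RefSeq promoters. TGANTCA stood in 0 of the 5 and in 6.75% of all promoters. The Crybb1 window runs a few bases past the start of that gene in GENCODE. These counts concern letters in these windows and say nothing of binding.
P2ry12, chr3:59262986-59263235, minus strand: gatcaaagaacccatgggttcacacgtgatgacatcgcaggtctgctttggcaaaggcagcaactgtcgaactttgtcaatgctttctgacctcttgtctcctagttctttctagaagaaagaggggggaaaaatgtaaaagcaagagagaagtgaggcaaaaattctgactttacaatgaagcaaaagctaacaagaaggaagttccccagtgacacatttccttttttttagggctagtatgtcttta
Olfml3, chr3:103738002-103738251, minus strand: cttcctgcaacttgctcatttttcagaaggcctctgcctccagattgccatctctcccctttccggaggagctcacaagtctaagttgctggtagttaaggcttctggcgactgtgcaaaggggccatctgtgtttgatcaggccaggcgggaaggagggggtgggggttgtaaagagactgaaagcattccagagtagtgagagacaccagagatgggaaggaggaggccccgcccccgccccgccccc
Crybb1, chr5:112255570-112255819, plus strand: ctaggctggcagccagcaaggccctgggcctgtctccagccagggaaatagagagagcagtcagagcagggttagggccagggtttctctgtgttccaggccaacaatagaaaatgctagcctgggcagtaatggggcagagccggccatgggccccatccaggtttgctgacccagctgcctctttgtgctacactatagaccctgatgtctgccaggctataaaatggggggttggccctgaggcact

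The files held 6163, 5920 and 6257 barcodes in Control, hCD33M and hCD33m, with 32272657, 36413491 and 40629705 UMIs (unique molecular identifiers, each standing for 1 captured molecule). Cells with over 200 and at most 8000 genes and at most 10% mitochondrial UMIs were kept, 5891, 5710 and 6068 in the same order, with medians of 4303, 4215.5 and 4881 UMIs. To compare cells at equal depth, each kept cell with at least 1600 UMIs was thinned at random to 1600. Cells of that depth with under 3 UMIs of border macrophage genes and under 3 of monocyte genes after thinning are called microglial cells here, 4375, 4191 and 5052 in all. Levels are UMIs per 1000000 UMIs (CPM) and, since a UMI counts a 3′ end once, are not divided by gene length. Libraries shared between 4 and 10 kept barcodes. The sex label of hCD33m is Female, unlike that of Control and hCD33M, although the paper describes male mice for the 3 genotypes. The Y-linked gene Ddx3y was at 95.3 CPM in Control, 105 in hCD33M and 94.9 in hCD33m. Xist, the RNA that marks female cells, had 3, 0 and 0 UMIs in the same order. By these genes hCD33m did not differ in sex from the other libraries, whatever its label. Each genotype is a single library, so intervals on a level cover counting error only.

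Together the 9 genes made up 2.28% of UMIs in Control, 2.34% in hCD33M and 2.1% in hCD33m. The receptors Csf1r, Cx3cr1 and P2ry12 and the adhesion ligand Selplg formed an upper group. Csf1r was at 3820.1 CPM in Control, 3828 in hCD33M and 3422 in hCD33m. Cx3cr1 was at 3576.5 CPM in Control, 3880.1 in hCD33M and 3671 in hCD33m, and P2ry12 at 3471 CPM in Control, 3566 in hCD33M and 3395 in hCD33m. The order of these receptors changed between libraries, with Csf1r highest in Control and Cx3cr1 highest in the other two. Selplg followed at 3246 CPM in Control, 3451 in hCD33M and 2976 in hCD33m, with a range that overlapped those of Csf1r and P2ry12.

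A middle group held Gpr34, Olfml3 and Fcrls. Gpr34 was at 2259 CPM in Control, 2237 in hCD33M and 2155 in hCD33m. Olfml3 was at 2318 CPM in Control, 2206 in hCD33M and 1808 in hCD33m, and Fcrls at 2108 CPM in Control, 2074 in hCD33M and 1719 in hCD33m. Their ranges over the 3 libraries overlapped, so no order among these 3 genes held beyond the spread between libraries. Tmem119, at 1569 CPM in Control, 1726 in hCD33M and 1517 in hCD33m, overlapped only the lowest Fcrls value. Crybb1 was the lowest of the 9 by a wide margin, at 433 CPM in Control, 455 in hCD33M and 377 in hCD33m, and it was apart from all others in every library. By rank among all genes found, Csf1r stood at 12, 14 and 14, and Crybb1 at 321, 310 and 369.

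**Figure D1:**
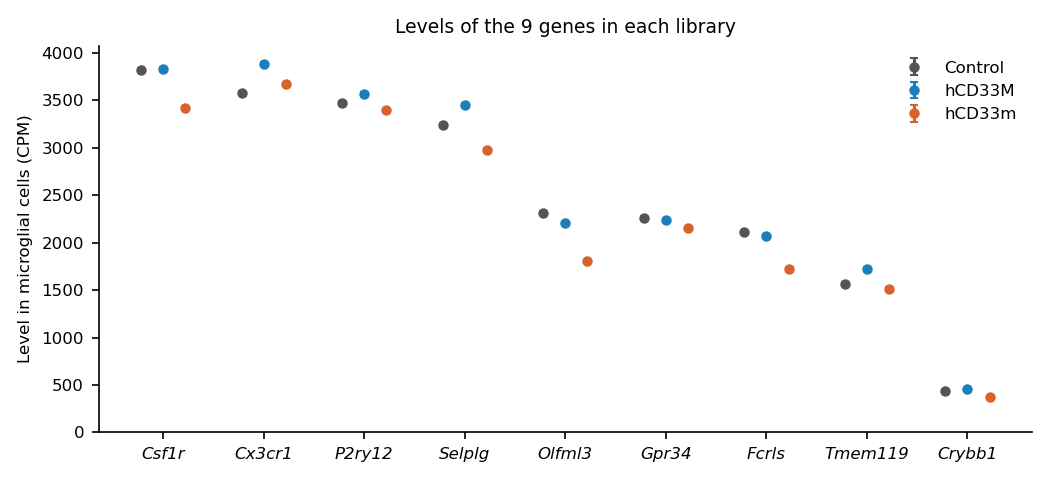
Level of each of the 9 genes in microglial cells (CPM, vertical axis from 0), with 1 point for each library and bars for the 95% Poisson counting interval, which are mostly smaller than the points. Crybb1 lies at 377 to 455 CPM, below the other 8 in all 3 libraries, and hCD33m has the lowest value for 8 of the 9 genes.

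At 1600 UMIs per cell, a UMI of Csf1r was found in 99.4%, 99.2% and 99% of microglial cells (Control, hCD33M, hCD33m), of P2ry12 in 98.2%, 98.5% and 98.5%, of Fcrls in 90.3%, 92.4% and 87.6% and of Crybb1 in 41.2%, 43.7% and 40.3%. Monocyte-gated cells (defined with the classes of cells) should lack P2ry12, and they held a UMI of it in 5 of 21 cells in Control, 0 of 13 cells in hCD33M and 3 of 36 cells in hCD33m, at the same 1600 UMIs and from median depths of 9990, 8992 and 8686 UMIs against 5211.5, 5111 and 5325 in the most common cells. The median microglial cell held 8 of the 9 genes in each library, with 37, 38 and 34 of their summed UMIs. At most 2 of the 9 genes were found in 6, 5 and 9 cells. The variance of UMIs over cells exceeded the mean, the value that counting error alone would give, for all 9 genes. It was 2.12, 1.93 and 1.81 times the mean for Fcrls, the most variable, and 1.24, 1.19 and 1.19 for Tmem119, the least.

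Within a library, 8 of the 9 genes rose and fell weakly together from cell to cell, and Crybb1 little or not at all. Among the 28 pairs without Crybb1, Pearson's r over microglial cells, on log2(UMIs + 1) at 1600 UMIs, was positive in every pair, with medians of 0.14, 0.15 and 0.10 in Control, hCD33M and hCD33m. The highest pairs were P2ry12 with Fcrls at 0.23 in Control, P2ry12 with Gpr34 at 0.23 in hCD33M, and P2ry12 with Selplg at 0.21 in hCD33m. The 8 pairs that include Crybb1 had medians of -0.01, -0.01 and 0.03, of which 3, 3 and 6 were positive. Against the sum of the other 8 genes, r was 0.38, 0.39 and 0.33 for P2ry12 and -0.01, 0.01 and 0.07 for Crybb1. The cells of a library share its depth and its free RNA, so these values are descriptions with no test. Crybb1 also had the fewest UMIs of the 9, and the part of this in its low r was not tested. Cells of all depths before thinning were pooled, and levels differed between depths, with Crybb1 lower in the shallowest cells and most others higher. The part of this in these values of r was not tested either.

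Outside the 9, Sparc, Ctsd, Siglech, Slc2a5 and Serinc3 were among the 6 genes whose level followed their sum most closely, ranked by the lowest r over the 3 libraries among 1581 genes of at least 100 CPM. Sparc, a secreted matrix protein, had r of 0.32, 0.30 and 0.29. The median lowest r over all genes compared was -0.02.

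To ask how the 9 genes stood in less common states, cells of at least 1600 UMIs were sorted into classes by 3 or more thinned UMIs of a gate list: interferon-induced genes, the chemokines Ccl3 and Ccl4, Cst7 with Vcam1 and Il1b, border macrophage genes such as Mrc1, or monocyte genes such as Plac8. Reference cells passed no gate. None of the 9 genes is in a gate. UMIs were summed per library and class and compared with reference cells by edgeR's quasi-likelihood test with library as a term, so that n = 3 libraries of different genotype, with Benjamini-Hochberg adjustment over all genes tested and a threshold of 0.05. The libraries are single samples of 3 genotypes. The p-values set a class's difference from reference cells against how unevenly differences between classes repeated over these libraries. That unevenness was estimated over all classes together, with information shared between genes, after the library term took out differences between libraries. A fold here is a share of a cell's RNA, and fewer molecules per cell cannot be told apart from a change in the rest of the RNA. The classes held 25, 22 and 33 interferon-gated cells in Control, hCD33M and hCD33m, 22, 15 and 90 chemokine-gated, 12, 11 and 22 Cst7-gated, 36, 27 and 60 border-gated and 21, 13 and 36 monocyte-gated cells, beside 4314, 4143 and 4904 reference cells. Cells with exactly 3 UMIs of a gate numbered between 1 and 40 per gate and library, and cells with 2, just outside, between 4 and 114. A gate is a rule on counts, so the cells of a class need not be of 1 type, and no doublet caller was run.

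In interferon-gated cells, 0 of the 9 genes differed from reference cells, against 0.229% of 6561 genes that were lower and 3.6% that were higher. At an unadjusted p under 0.05 there was 1 gene, Gpr34, and DESeq2 also called 0. Gpr34 was at 1522 CPM in Control, 1858 in hCD33M and 1692 in hCD33m, against 2266 CPM in Control, 2241 in hCD33M and 2165 in hCD33m in reference cells, lower in all 3 libraries, with a log2 fold of -0.35 ± 0.15 (SE, n = 3; adjusted p = 0.3 by edgeR). Selplg and Crybb1 had log2 folds of 0.02 ± 0.14 and 0.03 ± 0.13. The sum of the 9 genes came to 84.7% in Control, 88.8% in hCD33M and 90.2% in hCD33m of that in the same library's reference cells. With only cells of 500 to 4000 genes and at most 5% mitochondrial UMIs, P2ry12 and Fcrls were called lower, and with thinned UMIs Gpr34 and Fcrls were, so the count of 0 depended on the cell filter and on thinning.

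In chemokine-gated cells, 0 of the 9 genes passed either, against 0.441% of 6569 genes lower and 3.49% higher. At an unadjusted p under 0.05 there were 2, Selplg and Tmem119, and DESeq2 called 0. All 9 log2 folds were below 0, with a median of -0.15 against -0.00364 over all genes. Selplg was at 2068 CPM in Control, 3076 in hCD33M and 2372 in hCD33m, against 3256 CPM in Control, 3455 in hCD33M and 2993 in hCD33m in reference cells, with a log2 fold of -0.33 ± 0.14 (SE, n = 3; adjusted p = 0.24 by edgeR). The hCD33M library stood closest to its reference cells, while Control was furthest below. Border macrophage markers (Mrc1, Ms4a7, Pf4, Cd163, Lyve1 and Cbr2, summed) were at 169, 0 and 1.57 CPM in chemokine-gated cells of Control, hCD33M and hCD33m, against 18.8, 26.6 and 20.5 in reference cells, and in Control only Mrc1 and Ms4a7 of the 6 were above 0. Their part in the result was not tested. P2ry12, Tmem119 and Selplg were called lower when the gate was raised to 5 UMIs, with log2 folds of -0.82, -0.94 and -0.92. The same 3 genes were called with stricter cell filters, with thinned UMIs and, joined by Crybb1, in the Leiden cluster led by these chemokines.

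Cells gated on Cst7, Vcam1 and Il1b, genes of activated microglia, held less of 4 of the 9 genes, Crybb1, P2ry12, Cx3cr1 and Selplg, against 1.48% of 6568 genes lower. Crybb1 was at 78.2 CPM in Control, 87.9 in hCD33M and 136 in hCD33m, from 4, 6 and 15 UMIs, against 435 CPM in Control, 456 in hCD33M and 379 in hCD33m in reference cells. That is a log2 fold of -1.81 ± 0.27 (SE, n = 3; adjusted p = 2.83e-06 by edgeR), and it was lower in 3 of 3 libraries. P2ry12 was at 1447 CPM in Control, 1553.5 in hCD33M and 1419.5 in hCD33m, against 3486.5 CPM in Control, 3575 in hCD33M and 3424 in hCD33m. Its values in the 3 libraries lay within a narrow band, all under the lowest reference value, with a log2 fold of -1.11 ± 0.22 (adjusted p = 2.68e-04 by edgeR).

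Cx3cr1 had a log2 fold of -0.70 ± 0.16 and Selplg of -0.63 ± 0.16 in the same cells. Olfml3, the secreted member, was at 1995 CPM in Control, 1949 in hCD33M and 1881 in hCD33m against 2321 CPM in Control, 2209 in hCD33M and 1814 in hCD33m in reference cells, with a log2 fold of 0.03 ± 0.19 that did not pass (adjusted p = 0.97 by edgeR). Fcrls and Tmem119 had -0.10 ± 0.18 and -0.32 ± 0.20, and the receptors Gpr34 and Csf1r -0.43 ± 0.16 and -0.30 ± 0.15, and none of these passed. The log2 fold of Crybb1 ran from -3.75 with thinned UMIs to -0.80 in Leiden clusters and passed under all 15 alternatives. Without the hCD33m library, which holds 22 of the 45 cells, only Crybb1 remained called, and P2ry12 had an adjusted p of 0.052 by edgeR with a log2 fold of -1.14. DESeq2 did not call P2ry12 (adjusted p = 0.29). Median mitochondrial shares were higher in these cells, 4.29, 3.1 and 2.98% against 1.54, 1.29 and 1.3%, and border macrophage markers were at 293, 87.9 and 63.3 CPM against 18.8, 26.6 and 20.5. Of the 6 border markers, Mrc1, Ms4a7 and Pf4 were above 0 in Control and Mrc1 alone in hCD33M and in hCD33m, while Cd163, Lyve1 and Cbr2 were at 0 in all 3 libraries. The part of either in the result was not tested. With at most 5% mitochondrial UMIs and 500 to 4000 genes, 5 of the 9 were called lower.

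Border-gated cells, which express genes of the macrophages of the meninges and perivascular spaces, held less of 7 of the 9 genes, against 5.89% of 6565 genes lower. The sum of the 9 came to 60.4% in Control, 66.9% in hCD33M and 66.4% in hCD33m of reference cells. P2ry12 was at 1578 CPM in Control, 2004 in hCD33M and 1917 in hCD33m, and its log2 fold was -0.83 ± 0.19 (SE, n = 3; adjusted p = 8.88e-04 by edgeR). Tmem119 was at 744 CPM in Control, 1045 in hCD33M and 838 in hCD33m, with -0.78 ± 0.17, and Selplg at 1609 CPM in Control, 2059.7 in hCD33M and 1827 in hCD33m, with -0.72 ± 0.14. Olfml3, Gpr34, Crybb1 and Cx3cr1 had log2 folds of -0.74, -0.71, -0.57 and -0.51. The 3 libraries were lower than reference cells for each of these 7 genes.

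Csf1r and Fcrls were the 2 genes that did not pass. Fcrls was at 1963 CPM in Control, 1926 in hCD33M and 1448 in hCD33m, against 2112 CPM in Control, 2077 in hCD33M and 1728 in hCD33m in reference cells, with a log2 fold of -0.05 ± 0.16 (adjusted p = 0.89 by edgeR). Csf1r was at 2964 CPM in Control, 3324 in hCD33M and 2879 in hCD33m, with -0.17 ± 0.14 (adjusted p = 0.47 by edgeR). By CPM both genes were below the same library's reference cells in 3 of 3 libraries, Csf1r with no overlap of the groups. At equal depth, a Fcrls UMI was found in 32 of 36 cells in Control, 26 of 27 cells in hCD33M and 51 of 60 cells in hCD33m, while a Tmem119 UMI was found in 17 of 36 cells in Control, 17 of 27 cells in hCD33M and 28 of 60 cells in hCD33m. Monocyte-gated cells, which stand here for the background of free RNA, held a Fcrls UMI in 3 of 21 cells in Control, 1 of 13 cells in hCD33M and 6 of 36 cells in hCD33m. Median depths were 5943, 7649 and 5692.5 UMIs in border-gated and 9990, 8992 and 8686 in monocyte-gated cells. DESeq2 left 4 of the 7 calls, without P2ry12, Tmem119 and Olfml3, and the call of Cx3cr1 was lost with another thinning seed, without the hCD33M or the hCD33m library and in Leiden clusters. With thinned UMIs, Csf1r was called lower too.

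The border-gated cells were not uniform. Their summed UMIs of the 9 genes, out of 1600, ran from 3, 1 and 1 to 44, 42 and 38 in Control, hCD33M and hCD33m, around medians of 13.5, 24 and 14, where reference cells had medians of 37, 38 and 34. In the same order, 10 of 36, 10 of 27 and 17 of 60 cells lay at or over the 10th percentile of their library's reference cells. Siglech, a microglial marker outside the 9 genes, was at 1061 CPM in Control, 1205 in hCD33M and 1222 in hCD33m in these cells, against 2137 CPM in Control, 2104 in hCD33M and 2201 in hCD33m in reference cells. Some cells thus carried border macrophage genes together with summed UMIs of the 9 genes at or over that 10th percentile. It stood at 25, 27 and 23 UMIs, under the reference medians. Whether such barcodes hold 1 cell or 2 was not tested.

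**Figure D2:**
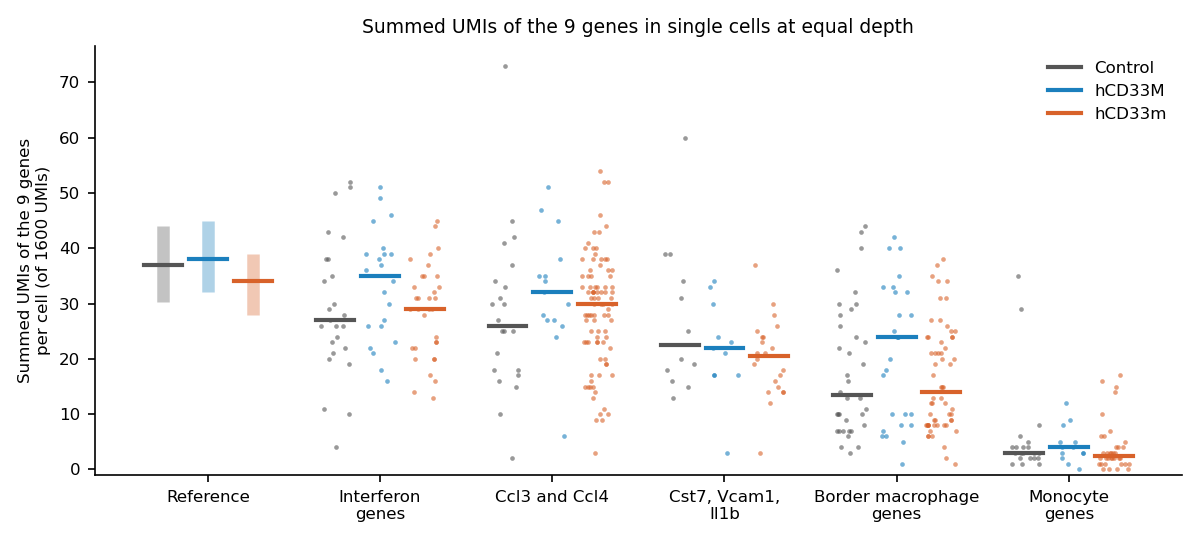
Summed UMIs of the 9 genes per cell, out of 1600 UMIs after thinning (vertical axis), by class and library, with 1 dot for each cell, horizontal bars for medians and, for reference cells, shaded bars for the middle 50% of cells in place of dots. Medians are 37, 38 and 34 in reference cells and 3, 4 and 2.5 in monocyte-gated cells, and border-gated cells spread from near the level of monocyte-gated cells up to that of reference cells.

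In monocyte-gated cells, which carry Plac8, Ly6c2 and other genes of blood monocytes, all 9 genes were lower, against 20.7% of 6565 genes. The sum of the 9 came to 20.9% in Control, 9.16% in hCD33M and 14.4% in hCD33m of reference cells. Fcrls was at 270.2 CPM in Control, 17.5 in hCD33M and 172 in hCD33m, with a log2 fold of -3.04 ± 0.22 (SE, n = 3; adjusted p = 1.89e-18 by edgeR). Gpr34, P2ry12, Tmem119, Crybb1 and Olfml3 had log2 folds of -2.97, -2.94, -2.70, -2.61 and -2.57. P2ry12 was at 591 CPM in Control, 43.7 in hCD33M and 263 in hCD33m, so that Control was the highest and hCD33M, with 5 UMIs, the lowest. A P2ry12 UMI was found at equal depth in 5 of 21 cells in Control, 0 of 13 cells in hCD33M and 3 of 36 cells in hCD33m, and 0 of 13 cells allows a share of up to 23.1% with a UMI at that depth (3 cells of 13, counting error only).

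Csf1r, Cx3cr1 and Selplg fell least. Blood monocytes are known to express these genes, but the part of this in the order of the folds was not tested. Csf1r was at 1054 CPM in Control, 900.4 in hCD33M and 887 in hCD33m, the most even of the 9 over libraries, with a log2 fold of -1.53 ± 0.15 (adjusted p = 3.51e-13 by edgeR). Cx3cr1, whose protein was part of the sort gate, was at 946 CPM in Control, 498 in hCD33M and 695 in hCD33m with -1.90 ± 0.17, and Selplg at 733 CPM in Control, 507 in hCD33M and 499 in hCD33m with -2.01 ± 0.16. A Csf1r UMI was found in 16 of 21 cells in Control, 11 of 13 cells in hCD33M and 20 of 36 cells in hCD33m. The microglial marker Siglech was at 320.3 CPM in Control, 87.4 in hCD33M and 249.7 in hCD33m. Per cell, the summed UMIs of the 9 genes had medians of 3, 4 and 2.5, and 2 Control cells of 21 reached the 10th percentile of reference cells while no cell of the other libraries did. Those 2 cells held 64 of the 125 summed UMIs of the Control class, or 51.2%, while the other 19 cells held 1 to 8 each, so the higher Control levels rest largely on them. These cells held more UMIs than reference cells, with medians of 9990, 8992 and 8686 against 5211.5, 5111 and 5325. Neutrophil markers were at 38654, 28270.5 and 0 CPM, which came from 1 cell in Control and 1 in hCD33M. Without the cells in which those markers passed 1% of UMIs, a choice made after seeing the data, all 9 genes were still called, with a median log2 fold of -2.60 against -2.61 with them.

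Cells of low depth were a class of another kind, defined by under 1 in 3 of their library's median UMIs (1299, 1277 and 914 cells, with medians of 872, 900 and 950.5 UMIs and 4.19, 4.09 and 4.54% mitochondrial UMIs). Many genes differed between these and reference cells, 31.5% lower and 34.8% higher, and 4 of the 9 did. Crybb1 was lower, at 152 CPM in Control, 143 in hCD33M and 131 in hCD33m against 435 CPM in Control, 456 in hCD33M and 379 in hCD33m in reference cells, a log2 fold of -1.41 ± 0.11 (SE, n = 3; adjusted p = 9.92e-16 by edgeR). Csf1r was higher, at 4503 CPM in Control, 5563 in hCD33M and 5579.7 in hCD33m against 3827 CPM in Control, 3837 in hCD33M and 3432 in hCD33m, a log2 fold of 0.67 ± 0.14 (adjusted p = 2.21e-05 by edgeR). Fcrls and Gpr34 were higher by 0.57 ± 0.16 and 0.55 ± 0.14, and the call of Fcrls was lost without the hCD33m library. P2ry12, Cx3cr1, Tmem119, Olfml3 and Selplg had log2 folds between -0.17 and 0.13 and did not pass, although P2ry12, Cx3cr1 and Tmem119 were lower by CPM in 3 of 3 libraries. The share of members called, 1 of 9 lower and 3 of 9 higher, is no larger than that background.

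These folds depended on the scaling. With scaling by library size alone, a setting added after seeing the data, the median log2 fold of all genes moved from -0.02 to -0.42 in monocyte-gated, from -0.05 to -0.19 in Cst7-gated, from -0.00293 to -0.11 in border-gated and from 0.06 to -0.11 in low-UMI cells. The share of called genes that were higher moved from 54.7% to 30.7%, from 71% to 49.3%, from 63.2% to 45.3% and from 52.5% to 41.1% in the same order. All calls of the 9 genes were kept, and Csf1r and Gpr34 were called lower in Cst7-gated cells as well, at -0.44 and -0.57. Olfml3 in Cst7-gated cells and Olfml3 and Selplg in low-UMI cells changed sign, to -0.11, -0.04 and -0.06, without passing under either scaling. Crybb1 changed sign in interferon-gated cells in the same way, to -0.02, and Selplg to -0.04.

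**Figure D3:**
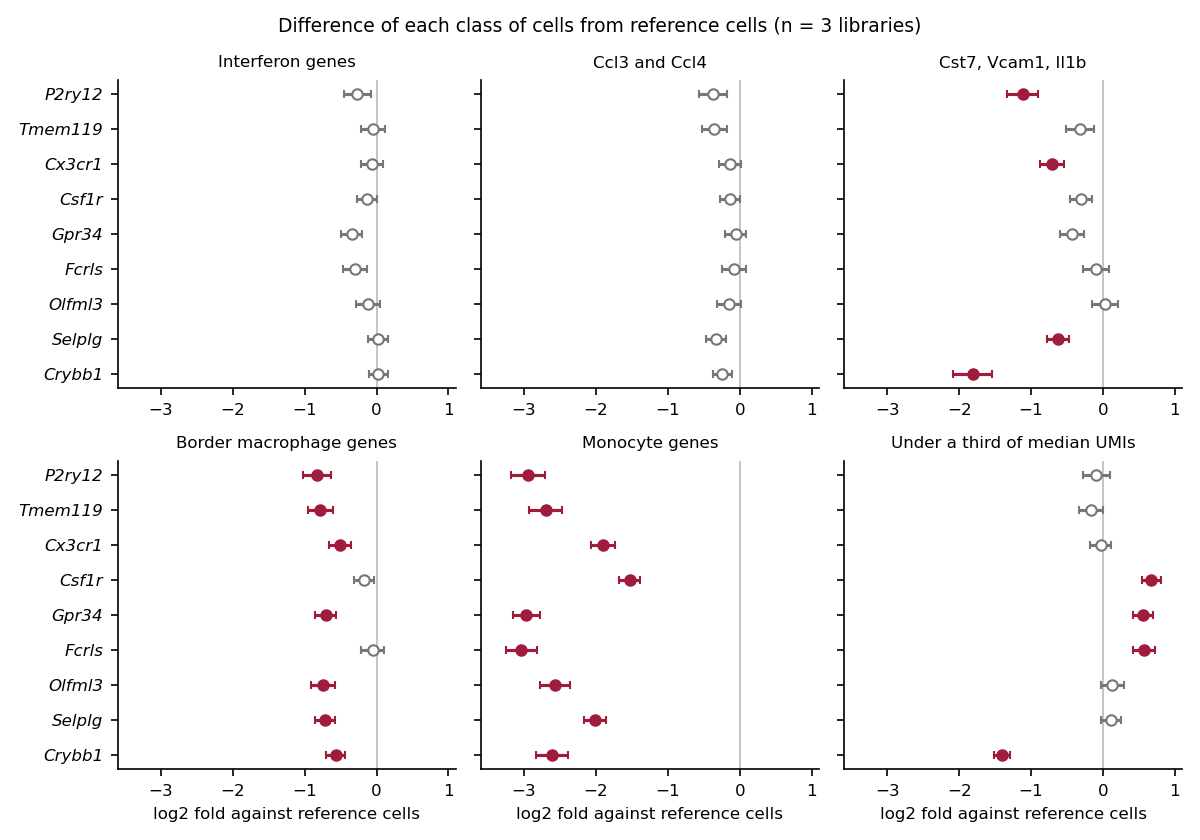
Log2 fold of each of the 9 genes in each class of cells against reference cells (horizontal axis), fitted over n = 3 libraries by edgeR, with bars for 1 SE. Filled red points passed an adjusted p of 0.05 and open grey points did not. All 9 genes lie left of 0 in monocyte-gated cells, from -3.04 to -1.53, while Csf1r and Fcrls stay near 0 in border-gated cells and Olfml3 in Cst7-gated cells.

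Depth was also followed within microglial cells. They were split into 4 bins of equal cell number by UMIs per cell and compared after thinning every cell to 1600 UMIs. In the shallowest bin Crybb1 stood at 201 CPM in Control, 225 in hCD33M and 266 in hCD33m, below the other 3 bins in each library (397 to 511 CPM in Control). Csf1r was above the other bins in each library, at 5565, 5476.5 and 3912 CPM, or 1.54, 1.51 and 1.18 times their mean. Gpr34 was 1.52, 1.45 and 1.18 times their mean. Fcrls, Olfml3 and Selplg were above the other bins in each library too. In Control, hCD33M and hCD33m, Fcrls was 1.39, 1.29 and 1.11 times the mean of the other bins. Olfml3 was 1.26, 1.23 and 1.07 times that mean, and Selplg 1.18, 1.18 and 1.07 times.

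P2ry12 and Tmem119 were above the other bins in Control and hCD33M but within their range in hCD33m, where P2ry12 was at 3391 CPM. Cx3cr1 was 1.2, 1.2 and 1.09 times the mean of the other bins. P2ry12, Tmem119 and Cx3cr1 were thus not lower in the shallowest bin, unlike in low-UMI cells, where they were lower by CPM. Crybb1 was lower and Csf1r, Gpr34 and Fcrls higher in both the shallowest bin and low-UMI cells. The bins of the hCD33m library began deeper, with a median of 3181 UMIs in its shallowest bin against 2404 and 2447.5, and its median mitochondrial share there was 1.3% against 2.36% and 1.92%. These are values of 3 libraries with no test.

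**Figure D4:**
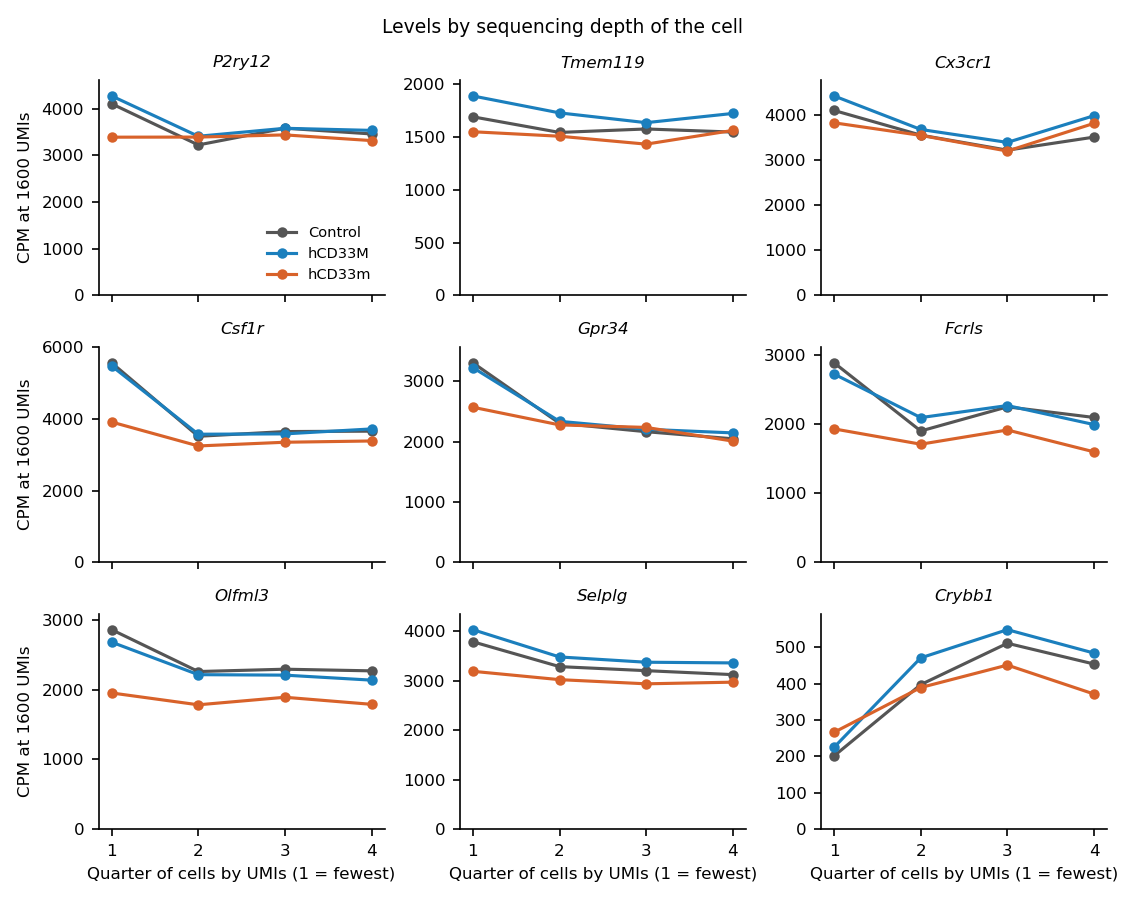
Level of each of the 9 genes (CPM after thinning each cell to 1600 UMIs, vertical axes from 0) in 4 bins of microglial cells by total UMIs, from the fewest (1) to the most (4), with 1 line for each library. Crybb1 is lowest in bin 1 in all 3 libraries, at 201 to 266 CPM, while Csf1r, Gpr34, Fcrls, Olfml3, Selplg and Cx3cr1 are highest there.

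Fos, an immediate early gene of the AP-1 family that cells switch on within minutes of a stimulus, was at 56.9 CPM in microglial cells of Control, at 249 in those of hCD33M and at 522 in those of hCD33m. Whether cells with Fos held less of the homeostatic genes was asked at equal depth, by comparing cells with at least 1 Fos UMI of 1600 (344, 1103 and 2211 cells) with cells that had none. Of the 9 genes 0 passed, against 0.389% of 10543 genes in either direction. At an unadjusted p under 0.05 there were 2, Csf1r and Cx3cr1, both higher with Fos, and DESeq2 called 0. Csf1r was at 4191.5 against 4088 CPM in Control, 4211 against 4044 CPM in hCD33M and 3549 against 3413 CPM in hCD33m. That is higher with Fos in 3 of 3 libraries, with a log2 fold of 0.06 ± 0.02 (SE, n = 3; adjusted p = 0.55 by edgeR).

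Crybb1 had the lowest log2 fold, -0.06 ± 0.04, and was at 338 against 395 CPM in Control, 438 against 429 CPM in hCD33M and 355 against 379.9 CPM in hCD33m, so its direction differed between libraries. P2ry12 was at 3314 against 3618 CPM in Control, 3732 against 3689.7 CPM in hCD33M and 3371 against 3397 CPM in hCD33m. In Control, 7 of the 9 genes were lower in cells with Fos, but Control had the fewest such cells. No log2 fold of the 9 exceeded 0.1 in either direction over the 3 libraries, and SEs were between 0.02 and 0.04. With cells thinned to 3000 UMIs in place of 1600, Fcrls and Gpr34 were called lower, with log2 folds of -0.09 and -0.08.

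Across single cells, Pearson's r of each gene with Fos at 1600 UMIs lay close to 0. For P2ry12 it was -0.03, 0.02 and -0.01 in Control, hCD33M and hCD33m, for Cx3cr1 0.00, 0.03 and 0.04, and for Fcrls and Selplg, the 2 genes below 0 in all 3 libraries, -0.02, -0.02 and -0.03 and -0.01, -0.02 and -0.01. The median over the 9 genes was -0.02, 0.01 and 0.01, against -0.00085, -0.00226 and -0.00179 over the 6519 to 6592 genes of at least 20 CPM. In counts this sparse such values are no finding in either direction. The cells of a library share its depth and free RNA, so they carry no p.

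**Figure D5:**
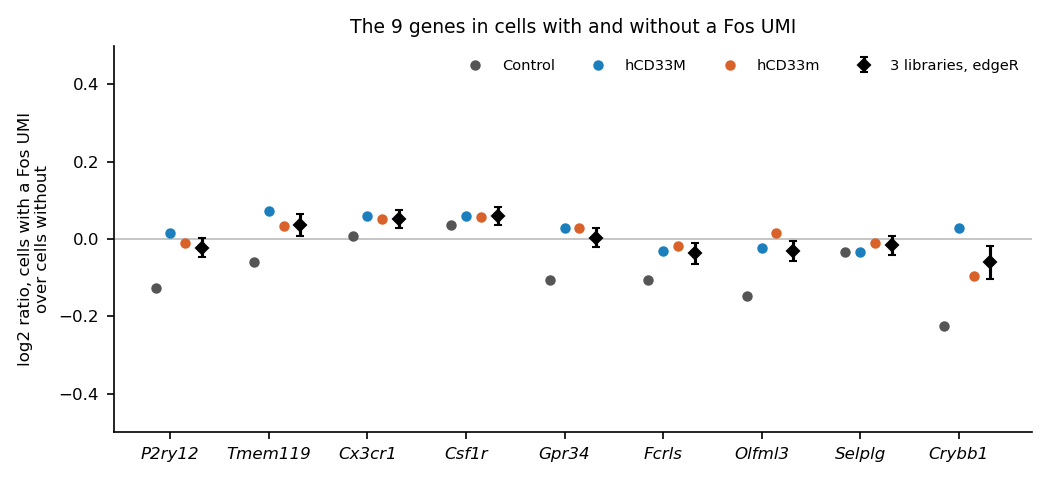
Log2 ratio of each of the 9 genes in microglial cells with at least 1 Fos UMI over cells with none, at 1600 UMIs per cell (vertical axis), with 1 coloured point for each library and black diamonds for the fit over 3 libraries with 1 SE. The fitted values lie between -0.06 and 0.06, and the Control points are the furthest below 0, down to -0.23 for Crybb1.

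Between libraries, the 9 genes were less than 1.5-fold apart, and with 1 library for each genotype no test of genotype was possible. A gene was counted as different where it was at least 1.5-fold apart with a counting interval clear of no change. By that rule 0 of the 9 differed between hCD33m and Control, against 1.24% of 6793 genes of at least 20 CPM. Likewise 0 of the 9 differed between hCD33M and Control, against 0.973%, and 0 between hCD33m and hCD33M, against 0.754%. The median log2 ratio of the 9 was -0.13 for hCD33m and 0.04 for hCD33M against Control, where the median of all genes was 0.01 and 0.02. For hCD33m against hCD33M it was -0.19, with all 9 ratios below 0 and a median of all genes of 0.00174. Each pair of these comparisons shares a library.

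The largest ratio belonged to the secreted Olfml3, at 2318 CPM in Control, 2206 in hCD33M and 1808 in hCD33m, a log2 ratio of -0.36 (95% counting interval -0.37 to -0.34) for hCD33m against Control. Fcrls, at 2108 CPM in Control, 2074 in hCD33M and 1719 in hCD33m, had -0.29 (95% counting interval -0.31 to -0.28). Csf1r had -0.16 (95% counting interval -0.17 to -0.15) and Crybb1 -0.20 (95% counting interval -0.23 to -0.16). With thinned UMIs, where each cell had the same weight, Olfml3 had -0.38, Fcrls -0.35, Csf1r -0.24 and Crybb1 -0.08. All of these lay outside the intervals given, so the ratios depended on how deep cells were weighted. Cx3cr1, whose locus drives the Cre, was at 3576.5 CPM in Control, 3880.1 in hCD33M and 3671 in hCD33m, with 0.04 (95% counting interval 0.03 to 0.05) for hCD33m and 0.12 (95% counting interval 0.11 to 0.13) for hCD33M against Control. It was the 1 gene that was not lower in hCD33m than in Control. In hCD33M, 6 of the 9 were higher than in Control, or 5 with TMM scaling between libraries, with Tmem119 furthest at 0.14 (95% counting interval 0.12 to 0.16). These intervals cover counting error only, and a spread between mice of the same genotype was not measured.

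Depth and Fos both differed between the libraries, so the ratios were also taken within cells of like depth and in cells with no Fos UMI among the 1600 left by thinning. In cells of 3000 to 6000 UMIs, chosen after seeing the data, Olfml3 had a log2 ratio of -0.35 and Fcrls of -0.23 for hCD33m against Control. In cells with no Fos UMI after thinning they had -0.36 and -0.29. Those cells still held Fos at 35.9 CPM in Control, 150.1 in hCD33M and 243 in hCD33m in their full counts, so they were not matched for Fos. P2ry12 and Cx3cr1 were at 0.00134 and -0.00479 at like depth, each with the sign opposite to that over all depths.

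Other genes of the homeostatic program were read beside the 9 as a list of 24, all tested. In monocyte-gated cells 24 of the 24 were lower, against 20.7% of all genes, with a median log2 fold of -2.39, and Sparc, Adgrg1 and Ctsd had the largest, at -3.02 ± 0.21, -2.86 ± 0.27 and -2.78 ± 0.19. In border-gated cells 16 were lower and 1 higher, against 5.89% and 10.1% of all genes. The 1 higher was Gas6, a bridging ligand for the clearance receptor Mertk, at 2.06 ± 0.12 (SE, n = 3; adjusted p = 4.44e-22 by edgeR), while Adgrg1 and the transcription factor Sall1 had -0.95 ± 0.15 and -0.92 ± 0.16. In Cst7-gated cells 8 were lower and 4 higher, against 1.48% and 3.61% of all genes. Itgam, which encodes the CD11b of the sort, was lower, at -1.19 ± 0.21, and so was the fructose transporter Slc2a5, at -0.98 ± 0.27, whereas the protease Ctss was higher, at 1.03 ± 0.15.

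In interferon-gated, chemokine-gated and Fos-positive cells 0 of the 24 passed, as for the 9 genes, and none differed by 1.5-fold between libraries. In low-UMI cells 18 of the 24 were higher and 2 lower, against 34.8% and 31.5% of all genes, with Adgrg1 at 0.70 ± 0.10 and Cd81 at 0.68 ± 0.13.

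Of 13 ligands and signalling partners of the 9 genes, 8 were high enough to test. Csf1, the ligand of Csf1r, was the 1 that rose in chemokine-gated cells, with a log2 fold of 4.10 ± 0.22 (SE, n = 3; adjusted p = 1.20e-22 by edgeR), and the 1 that rose in interferon-gated cells, at 2.22 ± 0.35 (adjusted p = 3.44e-06 by edgeR). It was at 532 CPM in Control, 149.5 in hCD33M and 146 in hCD33m in chemokine-gated cells, against 17.9 CPM in Control, 13.7 in hCD33M and 12.4 in hCD33m in reference cells. Of all genes, 3.49% were higher in chemokine-gated and 3.6% in interferon-gated cells. The receptor Csf1r had -0.14 ± 0.14 and -0.13 ± 0.14 in those classes and passed in neither. Adam10, a sheddase of fractalkine, was the 1 of the 8 lower in border-gated cells, at -0.45 ± 0.13, against 5.89% of all genes. It was lower in monocyte-gated cells too, at -1.07 ± 0.18. In monocyte-gated cells the potassium channel Kcnk13 was lower, at -1.68 ± 0.33, and the adaptor Tyrobp higher, at 0.86 ± 0.13. In that class 2 of the 8 were lower and 3 higher, against 20.7% and 25% of all genes. Cbl, a ubiquitin ligase that acts on Csf1r, was the 1 of the 8 lower in Cst7-gated cells, at -0.95 ± 0.27, against 1.48% of all genes. In low-UMI cells 3 of the 8 were lower and 3 higher, close to the 31.5% and 34.8% of all genes, with Gnai2, a G protein subunit, at -0.97 ± 0.11.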

How the data were processed

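Single-cell counts of sorted brain microglia from 3 libraries were used, with each genotype as the labels give it. According to the study's methods the authors aligned reads to mm10 with Cell Ranger and processed them in Seurat, and the deposited values are raw UMI counts per gene and cell with genes found in few cells left out. The annotation release is not given in the sources used here, so gene positions are those of GENCODE M21, looked up by symbol. UMI sums were tested with edgeR 4.0.16 (R 4.3.3, TMM scaling, filterByExpr), with library as a term, and DESeq2 1.42.0 was an alternative. Correlations, counting intervals (exact Poisson for levels, exact binomial for shares, conditional binomial for ratios, all at 95%) and thinning used Python 3.11.15, numpy 2.4.6, scipy 1.17.1 and pandas 2.3.3. Figures used matplotlib 3.10.9. Clusters, an alternative to the gates, were made with leidenalg 0.10.2 without the 9 genes. Cells in several gates were left out, as were gate genes from their own comparison. No doublet caller was run beyond the limit on genes. The fits and intervals were tested on simulated data with known changes. Alternatives were other scalings, DESeq2, no filter on low counts, gates of 2 or 5 UMIs, other depth and cell filters, thinned UMIs, another seed, Leiden clusters, other fold limits and leaving out each library. The neutrophil filter, the range of 3000 to 6000 UMIs and library size scaling were added after seeing the data. The genes named are the 9, up to 3 per list and comparison with the largest called log2 fold, and the 6 most alike, with 1 gene of these not reported here. The 9 genes and all lists, gates and motifs were chosen with earlier results of these data known. Il34, Selp, Mog, Cldn5, Cd3e, Trac, Trbc2, Ly6g, Fosl1 and Erdr1, also listed, were not analysed here. Depth ranged from 32272657 to 40629705 UMIs per library.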

Additional observations from a re-analysis of the deposited data

How the results depend on the processing

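No called value of the 9 genes changed direction under the alternatives run. Over genes and class or Fos comparisons, 858 values either kept a call or stayed uncalled, 14 lost a call and 28 gained one. In interferon-gated cells the number of genes called went from 0 to 2 with 500 to 4000 genes and at most 5% mitochondrial UMIs and to 2 with thinned UMIs. In chemokine-gated cells it went from 0 to 3 with a gate of 5 UMIs, 3 with the stricter cell filter, 3 with thinned UMIs and 4 in Leiden clusters. In Cst7-gated cells it went from 4 to 2 in Leiden clusters and ranged from 1 to 5 with 1 library left out, the lowest without hCD33m, and 6 were called with no filter on low counts, with a gate of 5 UMIs or with library size scaling. In border-gated cells DESeq2 called 4 in place of 7. In Fos-positive cells thinning to 3000 UMIs gave 2 in place of 0. For hCD33m against Control, a fold limit lower than 1.5 counted 1 gene, Olfml3, in place of 0. Over all genes, the number called moved by more than 1.5 times from 334 in Cst7-gated cells to 153 with a gate of 5 UMIs, 215 with another seed, 97 without hCD33m and 1360 in Leiden clusters. In chemokine-gated cells it moved from 258 to 161 with a gate of 2 UMIs, 163 without Control, 112 without hCD33m and 1178 in Leiden clusters. In border-gated cells it moved from 1051 to 587 without hCD33m. In low-UMI cells it moved from 4354 to 2813 with 500 to 4000 genes and at most 5% mitochondrial UMIs, where 4484 genes in place of 6571 were tested. In Fos-positive cells it moved from 41 to 17 with DESeq2, 20 at 1000 UMIs and 26 in cells of 3000 to 6000 UMIs. Thinned UMIs, which left fewer genes to test, gave 49 to 693 calls. The causes of these shifts were not tested. Medians of library ratios and of correlations with Fos stayed within the interval of the reported value under the alternatives run for them. All 9 genes were called in monocyte-gated cells under each of the 15 alternatives. The class and Fos comparisons were made within libraries. No paired analysis was possible for genotypes because each has 1 library. Precision is limited by the number of cells in the gated classes, 11 to 90 per library, and by 3 libraries without replicates of a genotype.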
